A study of Rattus norvegicus with 4 samples.

Results

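The mitochondrial respiratory chain was compared between 2 sublines of the Dunning R3327 rat prostate tumour, G and MAT-LyLu. The members were the array probe sets annotated with a single gene whose symbol begins with Nduf, Sdh, Uqcr, Cox4, Cox5, Cox6, Cox7, Cox8 or Atp5, or is Cycs, Cyct or Cyc1. This rule gave 102 of the 8799 probe sets on the array, which read 56 of 4737 named genes. Another 8 probe sets with several symbols, at least 1 of which met the rule, were left out, and no probe set read Cycs or Cyct alone. The G arrays (replicates 0 and 1) hold RNA of a line that the submitters call non-metastatic, and the MAT-LyLu arrays (replicates 0 and 1) RNA of a line they call highly metastatic. Both are cell lines, no treatment is given, and each group is 1 line, so what differs here differs between these particular lines. The labels speak of duplicates without naming separate cultures, so the spread behind each p-value is that of 2 arrays a line and could be technical only. In bulk RNA, fewer cells of a type and less RNA per cell cannot be told apart.

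The respiratory chain sits in the inner mitochondrial membrane. Complex I takes electrons from NADH and complex II from succinate, complex III passes them from ubiquinol to cytochrome c, and complex IV hands them to oxygen. The proton gradient built by complexes I, III and IV turns the ATP synthase, also called complex V. Most subunits are encoded in the nucleus and a few in mitochondrial DNA, and several subunits of complex IV have isoforms that differ between tissues.

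Values are signal intensities, 1 per probe set and array. Array medians ran from 2998 to 3156, and the background level, the 95th percentile of 23 negative control probe sets, ran from 1891 to 2311. The highest signal was 64036 on G replicate 1 and between 45582 and 47120 on the other arrays. Only 3 member probe sets, 1 of Cox6a1 and 2 of Cox8a, exceeded 47120, all on G replicate 1. Among the markers checked, 8 of 8 fibroblast genes fell in MAT-LyLu, with a summed signal of 150754 and 152814 in G against 12470 and 12282. Of 7 epithelial genes tested, 3 rose, among them Krt8, and 4 did not pass, among them Krt18, Krt19 and Krt5. Krt19 and the untested Epcam were below background on all arrays. Over all genes, 19.7% fell and 14.1% rose. No leukocyte or endothelial gene (of 4 and 3, also at an unadjusted p under 0.05 in limma) and 1 of 8 striated muscle gene (Myh4, below background on all arrays) passed the test. The part of these line differences in the results below was not tested.

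Respiratory chain genes were mostly lower in MAT-LyLu. The test was limma on log2(signal + 16), with Benjamini-Hochberg adjustment over 6555 probe sets and a threshold of 0.05. Of 96 member probe sets tested, 50 fell, 2 rose and 44 did not pass, while 20.3% of all tested probe sets fell and 13.9% rose. The median log2 difference (MAT-LyLu minus G) of the members was -0.40, against -0.03 over all tested probe sets. Both G arrays lay above both MAT-LyLu arrays in 72 of the 96, against 39.2% of all tested probe sets, and the reverse order held in 9, against 28.6%. Taking the brightest tested probe set for each gene, 32 of 54 genes fell, 1 rose and 21 did not pass, where 19.7% of all genes fell and 14.1% rose. By gene, both G arrays were higher in 43 of the 54, against 38.4% of all genes, and both MAT-LyLu arrays in 3, against 29.2%. The other 6 member probe sets lay in the lowest 25% of signals and were not tested. They read Ndufs4, Cox5a, Cox8b, Atp5if1, Cox6c-ps1 and Ndufaf3. Cox5a and the pseudogene Cox6c-ps1 had no other probe set.

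Most falls were modest: 13 of the 50 were of 2-fold or more, and 5 of those 13 belonged to Ndufa4l2 alone. Among all tested probe sets, 5.08% fell by 2-fold or more. By gene the count was 7 of 54, against 4.68% of all genes. Without MAT-LyLu replicate 1, 34 of the 50 kept the call, and without MAT-LyLu replicate 0, 43 did. In MAT-LyLu, replicate 0 was above replicate 1 in 82.3% of the tested members (median log2 gap 0.14), against 50.1% of all tested probe sets; in G it was above in 68.8% of members and 64.1% of all. The part of this array difference in the results was not tested.

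**Figure D1:**
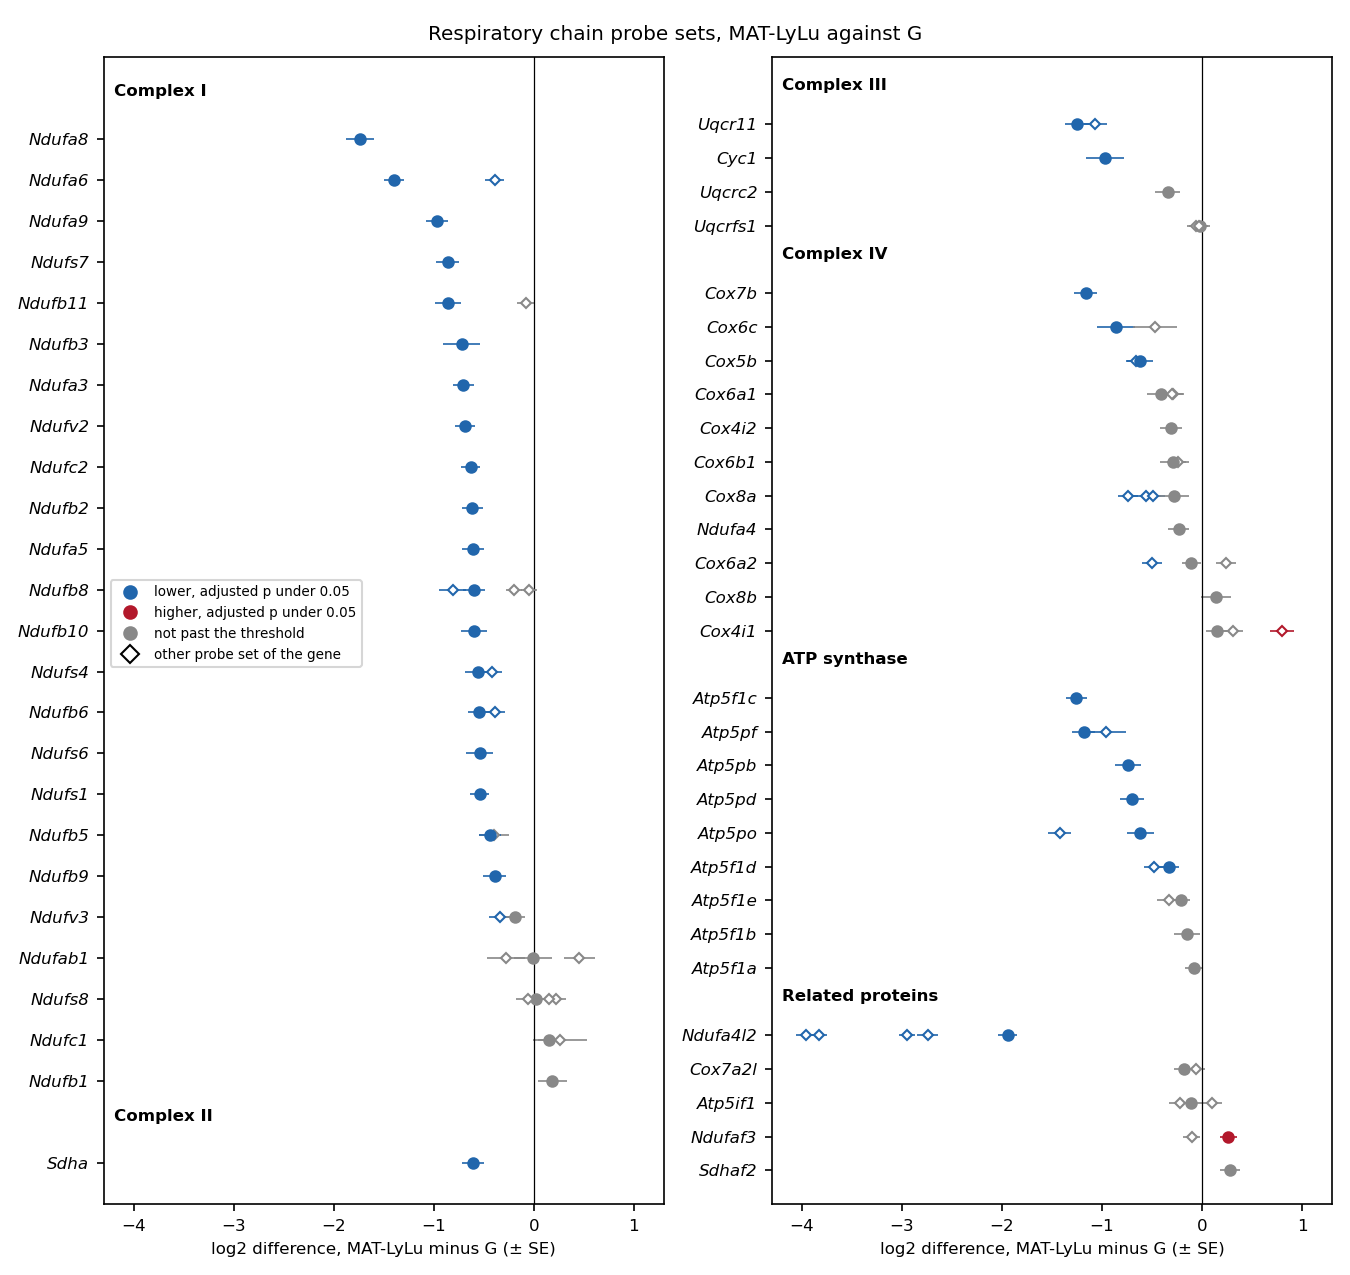
Log2 difference, MAT-LyLu minus G, of each tested probe set by gene and complex, with its SE. Filled circles are the brightest probe set of a gene, open diamonds its other probe sets, and colours give the call; the points lie left of 0 for 81 of the 96 probe sets, and Ndufa4l2 lies farthest left.

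Complex I. Of 24 complex I genes, 19 fell, none rose and 5 did not pass, with a median log2 difference of -0.59. The share that fell was 19.7% over all genes and 20.3% over all tested probe sets. By probe set, 24 of 39 fell and none rose in limma, with 1 higher at an unadjusted p under 0.05. At least 1 gene fell in each part of the enzyme, the peripheral arm that takes up NADH and reduces quinone as well as the membrane arm that pumps protons.

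In the electron input arm, Ndufv2, an iron-sulfur core subunit, read 20240 and 19077 in G and 12908 and 11532 in MAT-LyLu, a 1.61-fold fall (log2 difference -0.69, SE 0.10, adjusted p = 0.0011). The arrays of the lines did not overlap. Ndufs1, the largest iron-sulfur core subunit, was dimmer and fell 1.46-fold, from 3905 and 3570 to 2685 and 2436 (adjusted p = 0.0028). Of the accessory subunits, Ndufs6 fell 1.46-fold (adjusted p = 0.017) and Ndufs4 1.48-fold on its brighter probe set (adjusted p = 0.011). Without MAT-LyLu replicate 1 the adjusted p was 0.0505 for Ndufs6 and 0.10 for Ndufs4 (over all alternatives 6.8e-04 to 0.0505 and 0.0026 to 0.10). The dimmer Ndufs4 probe set fell 1.33-fold (adjusted p = 0.015), and lost its call without G replicate 0 (0.052) and without MAT-LyLu replicate 1 (0.10). Ndufv3 passed on its dimmer probe set only, at 1.26-fold lower (adjusted p = 0.044), a call lost under quantile, median and loess scaling and without G replicate 0 or MAT-LyLu replicate 1 (0.055 to 0.21). Its brighter probe set had a log2 difference of -0.19 (SE 0.10).

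In the quinone arm, Ndufs7, an iron-sulfur core subunit, fell 1.82-fold, from 11928 and 9819 to 6258 and 5659 (adjusted p = 7.2e-04). Ndufa9 fell 1.96-fold, from 18184 and 19677 to 10488 and 8876 (adjusted p = 3.0e-04), and Ndufa5 fell 1.53-fold (adjusted p = 0.0043). Ndufs8, the core subunit next to Ndufs7 in the electron path, did not pass. Its brightest probe set read 11520 and 10908 in G and 12654 and 10266 in MAT-LyLu (log2 difference 0.02, SE 0.12, adjusted p = 0.90). None of its 4 probe sets passed in the main fit, with log2 differences from -0.06 to 0.22, and on 3 of them the arrays of the lines overlapped. Without G replicate 0, the probe set at 0.22 had a log2 difference of 0.34.

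Among the subunits of the LYR family and their acyl carrier partner, Ndufa6 fell 2.63-fold on its brighter probe set, from 20230 and 17653 to 7423 and 6925 (adjusted p = 2.5e-05). On its dimmer probe set the fall was 1.31-fold (adjusted p = 0.015), a call lost without G replicate 0 (0.063) and without MAT-LyLu replicate 0 (0.088), so the size of the change differed between the probe sets. Ndufb9, the other LYR subunit, fell 1.31-fold (adjusted p = 0.033), and this call was lost under median scaling (0.074), with the replicate number as a block (0.079), without MAT-LyLu replicate 0 (0.13) and without MAT-LyLu replicate 1 (0.35). Ndufab1, the mitochondrial acyl carrier protein that these subunits bind, did not pass on any of 3 probe sets (log2 differences of -0.27, -0.01 and 0.46). The one at 0.46 passed as higher under median scaling (adjusted p = 0.033), with a background floor (0.019), with the replicate number as a block (0.015) and without G replicate 0 (0.0015). The one at -0.27 passed as lower without G replicate 1 (0.018) and with the block (0.0496). The brightest read 27880 and 19710 in G and 26559 and 20485 in MAT-LyLu, so its arrays differed more within than between lines.

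In the membrane arm, 10 of 12 genes fell. The largest complex I fall was that of Ndufa8, an accessory subunit on the intermembrane space side, from 22687 and 24618 to 8164 and 6126, or 3.34-fold (log2 difference -1.74, SE 0.14, adjusted p = 4.5e-05). Ndufb11 fell 1.81-fold on its brighter probe set, from 15409 and 13093 to 8735 and 7009 (adjusted p = 0.0015). Its other probe set lay at the background level, between 1969 and 2118 on the 4 arrays. Ndufa3 (1.63-fold), Ndufc2 (1.55-fold), Ndufb2 (1.53-fold) and Ndufb10 (1.51-fold) fell with adjusted p-values from 0.0012 to 0.0091 and kept the call in all 15 alternatives.

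Ndufb8 showed how far the reading depends on the probe set. Its brighter probe sets fell 1.75-fold, from 30602 and 30176 to 19767 and 15214, and 1.51-fold, from 32380 and 36905 to 23419 and 22363. Its dimmer probe sets, between 4031 and 5982 on all arrays, had log2 differences of -0.05 and -0.20 and did not pass. Without MAT-LyLu replicate 1 the calls of Ndufb3 (1.65-fold), Ndufb5 (1.36-fold), Ndufb6 (1.46-fold and 1.31-fold) and the brightest probe set of Ndufb8 were lost, at adjusted p from 0.068 to 0.17. Without G replicate 0, Ndufb5 (0.056) and the dimmer probe set of Ndufb6 (0.072) lost theirs too, as did the latter without MAT-LyLu replicate 0 (0.051). The arrays of the lines overlapped for Ndufb1 and Ndufc1, whose brightest probe sets had log2 differences of 0.19 and 0.16 and did not pass. The dimmer Ndufc1 probe set read 12601 and 6307 in G and 10983 and 10380 in MAT-LyLu. It did not pass either (log2 difference 0.26, SE 0.27). Without G replicate 0, the log2 difference was 0.76 on the dimmer and 0.315 on the brighter Ndufc1 probe set. In all, complex I had 24 calls, of which 13 held in every alternative, and 14 probe sets were lower without MAT-LyLu replicate 1.

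**Figure D2:**
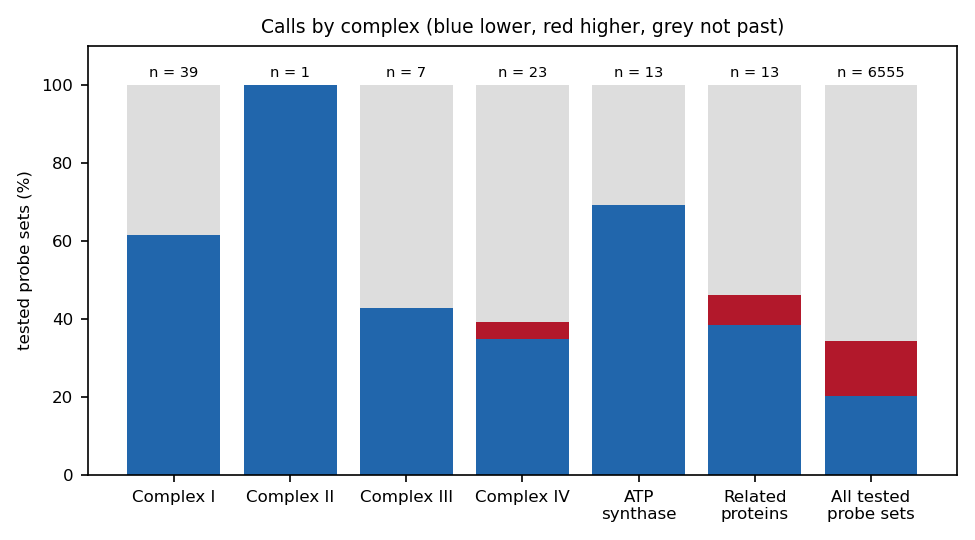
Share of tested probe sets (percent) that were lower (blue), higher (red) or not past the threshold (grey) in MAT-LyLu, by complex, with the number tested above each bar. The blue part is taller in every group of members than the 20.3% of all tested probe sets. Complex II rests on 1 probe set, and the blue part of the related proteins on Ndufa4l2 alone. By gene, 1 of 5 related proteins fell, against 19.7% of all genes.

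Complexes II and III. Sdha, the flavoprotein that oxidises succinate and an enzyme of the citric acid cycle as well, was the only complex II subunit among the members. It fell 1.53-fold, from 8014 and 9304 to 6056 and 5258 (log2 difference -0.61, SE 0.11, adjusted p = 0.0035), and kept the call in every alternative. Of 4 complex III genes, 2 fell and 2 did not pass, where 19.7% of all genes fell. Uqcr11, a small accessory subunit, fell 2.38-fold on its brighter probe set, from 29178 and 26735 to 12938 and 10667 (adjusted p = 1.2e-04). Its other probe set fell 2.09-fold (adjusted p = 2.3e-04). Cyc1, the cytochrome c1 heme protein that reduces cytochrome c, fell 1.96-fold, from 30269 and 31703 to 19763 and 12643 (adjusted p = 0.0056). The MAT-LyLu arrays differed for Cyc1, yet both lay under both G arrays.

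Uqcrfs1, the Rieske iron-sulfur protein of complex III, did not pass on any of 3 probe sets. The brightest read 23932 and 22743 in G and 23786 and 22296 in MAT-LyLu, and the log2 differences of the 3 were -0.02, -0.03 and -0.05 with SE from 0.09 to 0.10. Uqcrc2, a core protein, read 19726 and 19181 in G against 17273 and 13667. Its log2 difference of -0.34 (SE 0.12) missed the threshold in the main fit (adjusted p = 0.074). It passed narrowly as lower with a background floor. Without MAT-LyLu replicate 0 its log2 difference was -0.51.

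Complex IV. Most cytochrome c oxidase probe sets did not pass, and those that did fell with 1 exception. Of 11 genes tested, 3 fell, none rose and 8 did not pass on the brightest probe set (0 higher at an unadjusted p under 0.05 in limma). Over all genes, 19.7% fell and 14.1% rose. By probe set 8 of 23 fell and 1 rose, where 20.3% of all tested probe sets fell and 13.9% rose. The median log2 difference of the 23 was -0.30. The 8 became 5 without MAT-LyLu replicate 1 and 12 without G replicate 0. Cox7b, a small nuclear subunit, fell 2.24-fold, from 23362 and 24800 to 11864 and 9726 (adjusted p = 1.6e-04). Cox6c fell 1.81-fold on its brighter probe set (adjusted p = 0.0097), with G arrays far apart at 17605 and 11119 and MAT-LyLu arrays at 7685 and 7761. Its dimmer probe set, above background on 1 G array only, did not pass. Cox5b fell on both probe sets, 1.58-fold (adjusted p = 0.0015) and 1.54-fold (adjusted p = 0.0069); the brighter of them lost its call without MAT-LyLu replicate 1 (0.11, over all alternatives 0.0014 to 0.11).

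Cox4i1, the common isoform of the subunit that binds regulatory nucleotides, passed as higher on 1 of 3 probe sets. Its dimmest probe set rose 1.74-fold, from 10199 and 9962 to 19795 and 15630 (log2 difference 0.80, SE 0.12, adjusted p = 0.0015), and kept the call in every alternative. Its other probe sets read 29638 and 28621 against 36736 and 35361, and 32562 and 34033 against 38112 and 35652. Both had MAT-LyLu arrays above G arrays, with log2 differences of 0.31 and 0.15 (SE 0.10 and 0.11). Neither passed in the main fit (adjusted p = 0.054 and 0.35). The one at 0.31 passed as higher under loess (0.0086), median (0.044) and quantile scaling (8.9e-04). It also did so without an intensity trend (0.026) and without saturated probe sets (0.039). The one at 0.15 passed as higher under loess (0.036) and quantile scaling (0.0043). All 3 are of a type that can match related transcripts. Cox4i2, the isoform known from lung, read 23048 and 26556 in G and 19670 and 20222 in MAT-LyLu (log2 difference -0.31, SE 0.11, adjusted p = 0.061). Cox4i2 passed as lower without an intensity trend (adjusted p = 0.046). Without G replicate 0 its log2 difference was -0.41.

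The liver-type isoform Cox8a fell on 3 of 4 probe sets. The fall was 1.67-fold on the one with the smallest p, from 38206 and 35554 to 21875 and 22192 (adjusted p = 8.8e-04), and 1.47-fold and 1.41-fold on others (adjusted p = 0.023 and 0.015). Those smaller falls lost their calls without MAT-LyLu replicate 0 (0.066 and 0.14) and without MAT-LyLu replicate 1 (0.27 and 0.16), the 1.47-fold one also with the replicate number as a block (0.064). Its brightest probe set read 44873 and 60347 in G and 42453 and 43123 in MAT-LyLu. It was saturated on 1 array, G replicate 0, and did not pass in the main fit (log2 difference -0.28). Without G replicate 0 its log2 difference was -0.50. Cox8b, the heart and muscle isoform, stayed at the background level, between 1490 and 2063 on its brighter probe set. Cox6a1, the liver-type partner of Cox6a2, had G arrays above MAT-LyLu arrays on all 3 probe sets. None passed in the main fit (log2 differences -0.29 to -0.41, adjusted p from 0.066 to 0.090). The brightest Cox6a1 probe set passed as lower under loess (0.04) and quantile scaling (0.0015). It also did so with a background floor (0.036) and without an intensity trend (0.046). The dimmest passed as lower with the floor (0.04) and the other under quantile scaling (0.0042). Cox6a2, the heart and muscle isoform, had probe sets that disagreed: 1 fell 1.41-fold (adjusted p = 0.0061), the brightest did not pass (log2 difference -0.11), and the third lay below background on all arrays. Cox6b1 did not pass on either probe set (log2 differences -0.24 and -0.29), and neither did Ndufa4 (-0.23), now counted as a complex IV subunit.

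**Figure D3:**
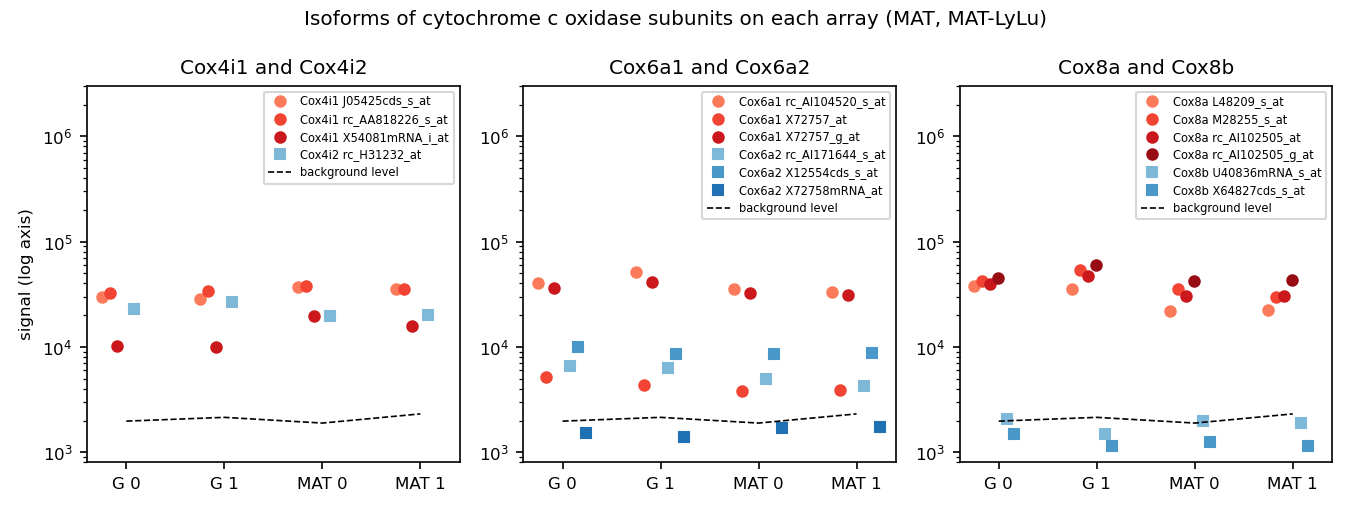
Signal (log axis) of each probe set of 3 isoform pairs of complex IV on the G (0 and 1) and MAT-LyLu (0 and 1) arrays, with the background level dashed. The dimmest Cox4i1 probe set goes up from 10199 and 9962 to 19795 and 15630, 3 Cox8a probe sets go down, and both Cox8b probe sets stay near or under background. The distance between probe sets does not rank their transcripts.

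ATP synthase. Of 9 genes, 6 fell and 3 did not pass, where 19.7% of all genes fell. Both G arrays were above both MAT-LyLu arrays for all 13 probe sets, against 39.2% of all tested probe sets. The subunits of the peripheral stalk, which holds the catalytic head still, fell on 6 of 6 probe sets. Atp5pf, or coupling factor F6, fell 2.27-fold on its brighter probe set, from 25895 and 22073 to 11101 and 9963 (adjusted p = 1.2e-04), and 1.95-fold on the other. Atp5po, the oligomycin sensitivity protein that joins stalk and head, fell 2.68-fold on 1 probe set, from 35413 and 38779 to 14985 and 12742 (adjusted p = 5.1e-05). On its brighter probe set it fell 1.53-fold (adjusted p = 0.0094), a call lost without MAT-LyLu replicate 0 (0.063) and without MAT-LyLu replicate 1 (0.11). Atp5pb, the membrane-anchored subunit b, fell 1.67-fold, from 23124 and 19868 to 14172 and 11566 (adjusted p = 0.0030). Atp5pd, subunit d, fell 1.63-fold (adjusted p = 0.0027).

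In the central stalk, the rotor shaft Atp5f1c (gamma) read 25233 and 26997 in G and 11738 and 10157 in MAT-LyLu, a 2.39-fold fall (log2 difference -1.26, SE 0.11, adjusted p = 6.2e-05). Atp5f1d (delta) fell 1.39-fold and 1.26-fold on its probe sets (adjusted p = 0.011 and 0.033). Both calls were lost without MAT-LyLu replicate 1 (0.083 and 0.14), and the second also under median scaling (0.057), loess scaling (0.060) and without MAT-LyLu replicate 0 (0.28). Atp5f1e (epsilon) did not pass in the main fit (log2 differences -0.21 and -0.33, adjusted p = 0.13 and 0.076). Its probe set at -0.33 passed as lower with the replicate number as a block (adjusted p = 0.033). Without G replicate 1 the log2 difference of that probe set was -0.40. Neither subunit measured of the catalytic head passed in the main fit. Atp5f1a (alpha) read 20419 and 20574 in G and 19552 and 19205 in MAT-LyLu (log2 difference -0.08, SE 0.09). Atp5f1b (beta), which carries the catalytic sites, read 37895 and 45915 against 37418 and 37869 (log2 difference -0.15, SE 0.13) (adjusted p = 0.55 and 0.43). Without G replicate 0, the log2 difference of Atp5f1b was -0.29. Whether the stalk and the head differ from each other was not tested. The ring subunits of the Atp5mc genes were read only by probe sets with several symbols and are not given.

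**Figure D4:**
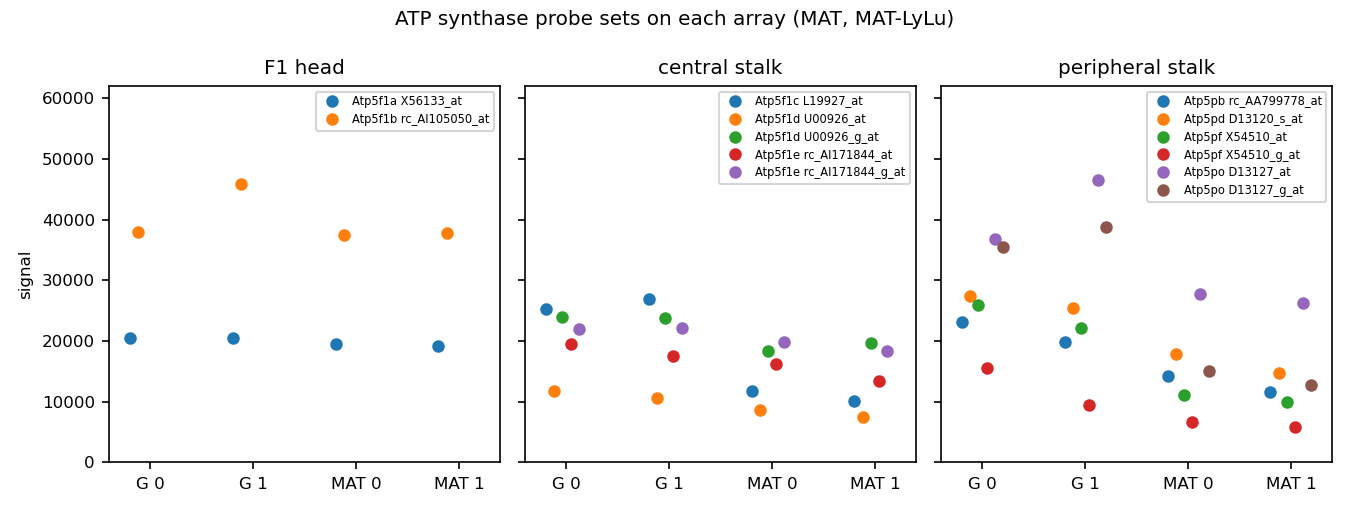
Signal of each ATP synthase probe set on the G (0 and 1) and MAT-LyLu (0 and 1) arrays, for the F1 head, the central stalk and the peripheral stalk. All 13 probe sets are lower on both MAT-LyLu arrays than on both G arrays, an order seen in 39.2% of all tested probe sets. Atp5f1a spans 19205 to 20574, and Atp5f1c spans 10157 to 26997.

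Related proteins. Ndufa4l2, a paralog of the complex IV subunit Ndufa4 known as a hypoxia-induced gene, had the largest fall of the members. Its 5 probe sets read between 9566 and 26368 on the G arrays and between 600 and 6113 on the MAT-LyLu arrays. The brightest fell 3.84-fold, from 24905 and 22077 to 6089 and 6113 (log2 difference -1.94, SE 0.09, adjusted p = 2.6e-06). Others fell 6.70-fold, from 26368 and 22032 to 3543 and 3625, and 7.70-fold, from 17113 and 16218 to 2164 and 2133, where 1 of the 2 MAT-LyLu arrays was above background. The remaining pair, built on 1 sequence entry, were under background on both MAT-LyLu arrays and fell at least 8.68-fold and at least 4.86-fold, computed with the MAT-LyLu values raised to the background level. All 5 are of a type that can match related transcripts, and the gene name rests on the array annotation. Ndufa4 read 24030 and 24687 in G and 21881 and 19600 in MAT-LyLu.

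No regulator or assembly factor passed as lower. Atp5if1, the inhibitor of ATP synthase run in reverse, did not pass on any of 3 tested probe sets (log2 differences -0.22 to 0.11). Cox7a2l, which joins complexes III and IV into supercomplexes, did not pass (log2 differences -0.06 and -0.18). Ndufaf3, a complex I assembly factor, rose 1.20-fold on 1 probe set, from 6242 and 5729 to 7286 and 7066 (adjusted p = 0.049). Its other tested probe set had both G arrays above both MAT-LyLu arrays and did not pass (log2 difference -0.10, adjusted p = 0.41). That call was lost in 6 of 15 alternatives: without MAT-LyLu replicate 1 (0.13), G replicate 1 (0.21) or MAT-LyLu replicate 0 (0.18), without an intensity trend or a filter (0.058 each) and without saturated probe sets (0.051). Sdhaf2, which helps attach flavin to Sdha, read 4774 and 5711 in G and 6373 and 6314 in MAT-LyLu (log2 difference 0.28, adjusted p = 0.074).

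**Figure D5:**
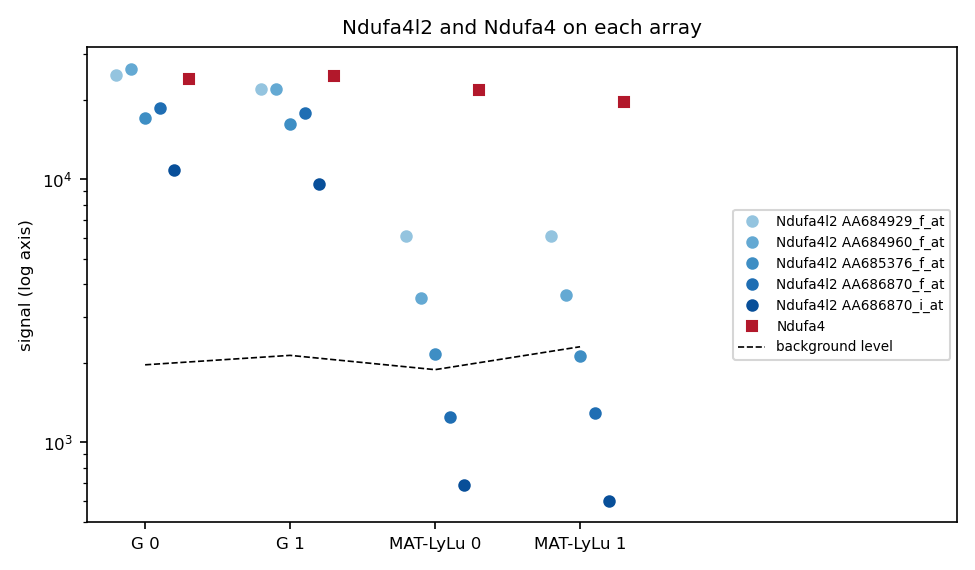
Signal (log axis) of the 5 Ndufa4l2 probe sets (circles) and of Ndufa4 (squares) on each array, with the background level dashed. The Ndufa4l2 probe sets drop on both MAT-LyLu arrays, 2 of them under background, while Ndufa4 stays between 19600 and 24687.

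Probe sets of 1 gene were compared with each other. Of 27 genes with 2 or more tested probe sets, 9 fell on all of them, 7 fell on some, 9 did not pass on any, and 2 (Cox4i1 and Ndufaf3) rose on 1. Probe sets of a gene can share sequence, so they are not independent readings.

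Promoter letters. Nuclear respiratory chain genes are known targets of NRF1, GABP (an ETS factor), YY1 and the ERR receptors, so the RefSeq promoter windows (GRCr8, from 250 bases before to 50 bases after each start) were searched on both strands. Full windows were found for 47 of the 56 member genes and for 27457 genes in all. The YY1 letters AAGATGGCG stood in 7 of 47 members (14.9%), against 1.93% of all windows. The ETS letters CCGGAAG stood in 10 (21.3% against 9.22%), the NRF1 palindrome (capitals in the Atp5po stretch) in 1 (2.13% against 0.932%) and the ERR letters TCAAGGTCA in none (0.412% of all). The end of the ETS letters can run into the YY1 letters, which happened in no member. The 7 genes with the YY1 letters were Atp5pf, Ndufa6, Ndufa9, Ndufb8, Ndufs4, Ndufs6 and Ndufs7. All 7 were among the 26 genes with a window that fell on the brightest probe set, and none among the 19 that did not pass. Without MAT-LyLu replicate 1, 4 of the 7 kept the call on the brightest probe set (Ndufb8, Ndufs4 and Ndufs6 lost it), and 17 genes with a window were lower in place of 26. The ETS letters stood in 4 of the 26 and 6 of the 19. These are counts with no test, and a match is a run of letters and not a site.

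The 6 windows below, from genes of complex I, are shown because they hold the YY1 letters (in capitals) close behind the annotated start; they were chosen after the matches were seen. Each is 29 bases, 5′ to 3′ on the gene's strand, and the match begins 5 to 24 bases after the start. The match holds an ATG and lies in the direction of transcription in every one.
Ndufa6 (chr7:115750284-115750312, minus strand): cttccttagcAAGATGGCGgccgcggcca
Ndufa9 (chr4:161374142-161374170, minus strand): attgtgggagAAGATGGCGgccgccgtcc
Ndufb8 (chr1:253362897-253362925, minus strand): ggagaaggtgAAGATGGCGgcgtcccggg
Ndufs4 (chr2:47794892-47794920, minus strand): tgcccacaggAAGATGGCGgcggtctcaa
Ndufs6 (chr1:31797413-31797441, plus strand): ggtcgtcggcAAGATGGCGgcggcgctga
Ndufs7 (chr7:10110476-10110504, minus strand): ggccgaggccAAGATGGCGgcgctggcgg

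In the ATP synthase the matches, those of Atp5pf, Atp5po and Atp5f1a, lay before the start. The Atp5pf stretch from base -130 to base -51 (chr11:37375152-37375231, minus strand) holds the YY1 and then the ETS letters in capitals, and the Atp5po stretch of 80 bases before the start (chr11:44657484-44657563, minus strand) holds the NRF1 letters. Atp5pf and Atp5po fell on both of their probe sets. Atp5f1a, with the ETS letters at base -60 on the opposite strand, did not pass and is not printed.
Atp5pf: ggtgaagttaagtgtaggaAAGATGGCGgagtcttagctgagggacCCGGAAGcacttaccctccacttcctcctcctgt
Atp5po: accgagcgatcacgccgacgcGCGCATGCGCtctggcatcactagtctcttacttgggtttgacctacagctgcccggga

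Other mitochondrial genes were called in both directions. Of 58 genes tested in 6 lists outside the rule, 18 fell, 5 rose and 35 did not pass on the brightest probe set, with a median log2 difference of -0.16, against 19.7% and 14.1% of all genes. Without MAT-LyLu replicate 0, 3 rose. Over all 95 tested probe sets of these genes, 35 fell and 8 rose, and the genes named here after their dimmer probe sets were chosen with the values seen. In pyruvate dehydrogenase and the citric acid cycle, which feed the chain with NADH, 6 of 12 fell and none rose on the brightest probe set (0 also at an unadjusted p under 0.05 in limma). The dimmer probe set of Dlst, of the oxoglutarate dehydrogenase complex, rose 1.37-fold (adjusted p = 0.045). Idh3g, a subunit of NAD-dependent isocitrate dehydrogenase, fell 1.998-fold, from 17670 and 17190 to 9142 and 8310 (adjusted p = 9.7e-05). Pdha1, of pyruvate dehydrogenase, fell 1.78-fold (adjusted p = 0.0015) and the citrate synthase gene Cs 1.48-fold (adjusted p = 0.0034). In beta-oxidation and electron entry, 7 of 17 fell and 1 rose. Ivd, which breaks down leucine products and hands its electrons to the chain, fell 2.19-fold (adjusted p = 3.6e-05), the thiolase Acaa2 2.09-fold (1.0e-04) and the isomerase Eci1 2.04-fold (1.2e-04). The rise was that of Acadl, 1.85-fold (adjusted p = 0.023), with G arrays at 5243 and 2928; it was lost without MAT-LyLu replicate 0 (0.062) and named after its value was seen.

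Of 13 carriers and channels, 1 fell, 2 rose and 10 did not pass on the brightest probe set, shares near or under those of all genes. On any probe set, 4 of the 13 held a lower call: Tspo, Vdac1, Slc25a10 and Slc25a11, the last 3 on dimmer probe sets only. Slc25a1, the citrate carrier that supplies lipid synthesis, rose 2.06-fold, from 7839 and 5852 to 14666 and 13297 (adjusted p = 7.9e-04). The ADP/ATP carrier Slc25a5 rose 1.26-fold (adjusted p = 0.035), and lost the call with the replicate number as a block or without either MAT-LyLu array (highest adjusted p over the alternatives 0.25). Tspo, of the outer membrane, fell 1.35-fold (adjusted p = 0.0089), a call lost without either MAT-LyLu array (highest 0.10). The other ADP/ATP carrier Slc25a4, the outer membrane channel Vdac1 and the uncoupling protein Ucp2 did not pass on their brightest probe sets (log2 differences -0.29, -0.34 and 0.19). The dimmer Vdac1 probe set fell 1.297-fold (adjusted p = 0.038). Of 9 assembly, import and chaperone genes, 4 fell, 2 rose and 3 did not pass. Tomm20, a receptor of the outer membrane import pore, rose 2.60-fold, from 12036 and 11172 to 29603 and 30717 (adjusted p = 2.0e-05). Timm17a, of the inner membrane import pore, fell 1.40-fold, the processing peptidase Pmpcb fell 1.38-fold, and the chaperonin Hspd1 did not pass (log2 difference -0.14).

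None of 4 genes of mitochondrial DNA upkeep and control passed in limma on its brightest probe set (1 was higher at an unadjusted p under 0.05). The dimmer of 2 Esrra probe sets rose 1.25-fold (adjusted p = 0.039). None of the 3 genes measured from mitochondrial DNA passed in the main fit (0 at an unadjusted p under 0.05). The latter, COX1, COX2 and COX3, encode the catalytic core of complex IV and were near the top of the scale on every array. Their brightest probe sets are of a type that can match related transcripts. COX1 and COX2 had both G arrays above both MAT-LyLu arrays, an order seen in 38.4% of all genes. Their log2 differences were -0.24 and -0.16 (SE 0.15 and 0.13). COX3 was saturated on all 4 (47005 and 63942 in G, 46312 and 45485 in MAT-LyLu), so no difference could be read from it.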

How the data were processed

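Total RNA of 4 samples was hybridised as biotinylated cRNA to oligonucleotide arrays. The signal intensities, 1 per probe set and array, are as the authors deposited them. The submitters' processing notes name MAS5, without version, scaling or filter. The fit used these intensities as log2(signal + 16), without control probe sets or the lowest 25% by mean signal, leaving 6555. The lines were compared by limma 3.58.1 (R 4.3.3), using lmFit and a trended eBayes. Tests were 2-sided, and p-values were adjusted by Benjamini-Hochberg over all tested probe sets, with a threshold of 0.05. A permutation of 2 against 2 arrays cannot go below p = 0.333. The precision is limited by the number of arrays. Folds are 2 to the fitted difference. A signal of at least 95% of the array's maximum counts as saturated. The script was tested on simulated data.

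Symbols came from the platform annotation, updated through RefSeq (GRCr8) gene identifiers; 6994 of 7018 single-symbol probe sets matched. Probe sets ending in _s, _f or _i can match related transcripts. The members, gene lists, background and saturation limits were chosen with earlier results of these data known. All members may be named; of other lists, up to 3 genes past the threshold with the smallest p and a few given genes. Alternatives were pseudocounts, filters, scalings, the variance model, a background floor, removal of saturated probe sets, gene-level fits, the replicate number as a block and each array left out.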

Additional observations from a re-analysis of the deposited data

How the results depend on the processing

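Over the 15 alternatives fitted by probe set, 33 of the 50 lower calls, in 27 genes, were kept in every one, and no called probe set changed sign; 13 probe sets that did not pass changed sign in at least 1. Of the 44 that did not pass, 12 were called lower and 9 higher in 1 or more alternatives. Outside the fits that leave out an array, the count of lower member probe sets ran from 47 to 54, that of lower genes from 30 to 36 and the median log2 difference from -0.42 to -0.32. The count of higher member probe sets, 2, was 4 with loess scaling, 5 with median scaling, 4 with quantile normalization, 4 with a floor at the background level and 1 with no filter. The count of higher member genes, 1, was 2 with loess scaling, quantile normalization, the floor or the mean of all probe sets, and 0 without an intensity trend, without a filter or without saturated probe sets. The probe set that gave this gene call is that of Ndufaf3. Over all tested probe sets the higher share of calls was 40.6%, and 46.3% to 49.1% under the other scalings.

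With 1 array left out, the lone array of a line is assumed to vary like the others. Lower member probe sets then ran from 34 to 56, higher ones from 1 to 8, lower genes from 22 to 35, higher genes from 0 to 3, and the median from -0.47 to -0.34. By complex, lower probe sets ran from 14 to 26 in complex I, from 5 to 12 in complex IV and from 6 to 10 in the ATP synthase. They ran from 3 to 4 in complex III and stayed at 1 in complex II. Other mitochondrial genes ran from 12 to 21 lower and from 3 to 7 higher. With the replicate number as a block, 52 member probe sets were lower and 3 higher; the numbers are only shared labels, with a correlation of 0.16 between the lines' replicate differences over all tested probe sets. Signals near background limit what Cox8b, Cox5a and the dimmer probe sets can show, and saturation limits 1 Cox8a probe set and COX3.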
